A study of Homo sapiens with 6 samples.

Results

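SIK1, LATS2, STK17A and SGK1 encode serine/threonine kinases, enzymes that attach phosphate to serine or threonine residues of other proteins. They were taken by gene symbol from the authors' deposited table of probe sets that differed between keratinocytes with and without M1 protein, so the 4 genes make up 4 of its 497 probe sets, and of 22119 probe sets measured. Each gene had 1 probe set in the authors' table. Whether the arrays hold another for it cannot be told, since probe sets outside that table carry no name here. The M1 samples were HaCaT cells given 5 µg/ml of M1 protein, the surface protein by which Streptococcus pyogenes resists phagocytosis, for 6 h, and number 3. The control samples were HaCaT cells left without M1 protein, also 3. HaCaT is a spontaneously immortalised keratinocyte line from adult human skin, and both groups grew in medium free of serum and of calcium to 80% confluency. The labels call the samples biological replicates without saying how the cultures were separated. The SDs given here therefore measure the spread between these samples, which may be technical. Each SE from limma combines that spread for the gene with a typical spread over all probe sets.

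The kinases stand at different points of cell signalling. SGK1 is an AGC family kinase that is switched on downstream of PI3-kinase, and its gene was named for its induction by serum and glucocorticoids. SIK1 is a relative of AMP-activated kinase that depends on the kinase LKB1 and keeps the CREB coactivators of the CRTC family, and class IIa histone deacetylases, out of the nucleus. LATS2 is a kinase of the Hippo pathway, which inactivates the coactivators YAP and TAZ, and STK17A, also called DRAK1, belongs to the death-associated protein kinase family. In epidermis, Hippo and PI3-kinase signalling are known for their part in keratinocyte growth and survival.

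Values are log2 RMA signals, a scale on which a difference of 1 is a doubling. The array medians were 6.93 to 6.96 in M1 samples and 6.99 to 7.01 in control samples, and no member's signal lay below 7.14, against 25th percentiles of 5.71 to 5.79 on the arrays. Of 12 keratinocyte markers, only KRT17 and LAMB3 carry a name in the files used here, because names came only with the authors' table. KRT17, a keratin of activated keratinocytes, was at 9.33, 9.25 and 9.10 in M1 samples and 8.21, 8.11 and 8.05 in control samples. LAMB3, a basement membrane laminin chain, was at 12.53, 12.60 and 12.55 in M1 samples and 11.86, 11.77 and 11.80 in control samples. Of 19 markers of fibroblasts, leukocytes, endothelium and melanocytes, 0 are named there, so the label could be checked no further. In RNA from whole cultures, a change in the number of expressing cells and a change in the RNA per cell cannot be told apart.

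All 4 kinase genes had higher signals with M1 protein, between 2.22-fold and 4.06-fold, and in each of them every M1 sample lay above every control sample. In the limma fit over all probe sets, at a Benjamini-Hochberg adjusted p under 0.05, 32.8% of the 22119 probe sets were called, 11.6% higher and 21.2% lower, and all 4 members were among those called higher. With each array centred on its median, 16.2% were called higher and 16.6% lower. All 3 M1 arrays lay above all 3 control arrays in 18.6% of probe sets, and below them in 27.9%. Within the authors' table, 61% of probe sets were higher and 39% lower. Because the genes come from a table that was selected on this same contrast, their calls and their separation were largely fixed by that choice. Their differences are therefore given below as a description, without a test. The values that selected them, in the authors' deposited table, were SAM scores of 2.67 for SIK1, 1.87 for LATS2, 1.77 for STK17A and 1.61 for SGK1, where the lowest positive score listed was 1.03. The p-values of the authors' deposited table ran from 3.81e-05 for LATS2 to 0.000467 for SIK1, and the largest in that table was 0.000999.

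SIK1 stood furthest apart. Its log2 signal was 11.21, 11.41 and 11.14 in M1 samples 1 to 3, against 9.28, 9.25 and 9.17 in control samples 1 to 3. The lowest M1 sample lay 1.86 above the highest control sample, and M1 sample 2 was the highest of all. The means were 11.25 ± 0.14 in M1 samples and 9.23 ± 0.05 in control samples (SD, n = 3 each), a log2 difference of 2.02 ± 0.08 (SE from limma). This was the 63rd largest rise of all probe sets and the 54th of the authors' table. The table places the gene on the minus strand of chromosome 21, from 44834395 to 44847008, in a genome build that the sources used here do not name.

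The SIK1 gene is a known target of CREB, the cAMP response element binding protein, and its promoter is shown for that reason. Promoter windows were read from RefSeq (build GRCh38.p14), which holds 300 bases around a gene's start, 250 before it and 50 after it. All 4 genes matched. The 250 bases before the SIK1 start, chr21:43427132-43427381 on the minus strand, are printed 5′ to 3′ with each match to TGACG, the core of the cAMP response element, on either strand in capitals.
SIK1 promoter: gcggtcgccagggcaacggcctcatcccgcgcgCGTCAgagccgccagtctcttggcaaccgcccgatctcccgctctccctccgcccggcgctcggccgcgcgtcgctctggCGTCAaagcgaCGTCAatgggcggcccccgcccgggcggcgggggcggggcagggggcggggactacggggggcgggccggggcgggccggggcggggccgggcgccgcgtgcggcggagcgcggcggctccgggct
The window held 3 matches to TGACG, all of them on the opposite strand and therefore read as CGTCA, with their leftmost bases at -217, -137 and -126 from the start. At least 1 match was found in 24.6% of 35116 RefSeq windows of the same length, and at least 3 in 1.4% of them. The GC content was 82.3% in the SIK1 window against a median of 58.7% over all windows, and these shares were not matched for it. The full palindrome TGACGTCA was not in the SIK1 window and was in 1.85% of all windows. A match is a description of the letters and does not show that a factor binds there.

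LATS2 came next. Its log2 signal was 9.16, 9.0 and 9.11 in M1 samples, against 7.64, 7.69 and 7.81 in control samples. Here M1 sample 2 was the lowest of its group, and still lay 1.20 above the highest control sample. The means were 9.09 ± 0.08 in M1 samples and 7.71 ± 0.09 in control samples (SD, n = 3 each), a log2 difference of 1.38 ± 0.07 (SE) or 2.60-fold, the 166th largest rise. The authors' table gives the gene on the minus strand of chromosome 13 from 21547171 to 21635722.

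LATS2 is itself a target of YAP and TAZ, which act through the DNA-binding TEAD factors. Its promoter, chr13:21061587-21061836 on the minus strand of GRCh38.p14, is therefore shown with matches to TGACG in capitals. Below it stand 2 short stretches at the start of the gene, chr13:21061575-21061595 with a second TGACG and chr13:21061564-21061585 with the TEAD motif GGAATG, again in capitals.
LATS2 promoter: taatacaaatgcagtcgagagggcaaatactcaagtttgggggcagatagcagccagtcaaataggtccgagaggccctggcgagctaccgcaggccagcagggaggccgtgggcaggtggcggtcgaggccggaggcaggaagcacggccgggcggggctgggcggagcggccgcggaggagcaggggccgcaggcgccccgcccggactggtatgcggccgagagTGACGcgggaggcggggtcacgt
LATS2 start, TGACG: gggtcacgTGACGcccgtgga
LATS2 start, GGAATG: acgcccgtGGAATGccaacaat
The matches to TGACG began at -23 and -1, and GGAATG began at base 10 after the start, all on the strand of the gene. GGAATG was present in 14% of all windows, on either strand. Neither TGANTCA, the AP-1 motif, nor the NF-kappaB motif searched, GGGA and CC with 4 bases of any kind between them, was found in any member's window. They occur in 7.71% and 25.6% of all windows. The searched patterns can overlap, since the full palindrome contains TGACG and GGAATG can lie within the NF-kappaB pattern.

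STK17A differed from control by 1.25 ± 0.06 (SE) on the log2 scale, 2.38-fold. Its log2 signal was 11.94, 11.97 and 11.86 in M1 samples, against 10.66, 10.65 and 10.71 in control samples. The groups were separated by 1.15, and the spread was narrow, with an SD of 0.06 in M1 samples and 0.03 in control samples (n = 3 each). It ranked 219th among all rises. The authors' table places STK17A on chromosome 7, plus strand, between 43622357 and 43666978, and none of the 5 motifs was found in its promoter window.

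SGK1 had the smallest difference of the 4, 1.15 ± 0.06 (SE) on the log2 scale or 2.22-fold, and ranked 251st. Its log2 signal was 8.39, 8.28 and 8.27 in M1 samples, against 7.20, 7.17 and 7.14 in control samples. The groups were 1.07 apart, and the means were 8.31 ± 0.07 in M1 samples and 7.17 ± 0.03 in control samples (SD, n = 3 each). The authors' table gives the gene on the minus strand of chromosome 6 from 134490384 to 134639250, a span of 148867 bases. RefSeq lists 3 promoter windows for SGK1, and a single signal for the whole probe set does not tell which start was used. None of the 5 motifs was found in these 3 windows, whose GC content was 38%, 43% and 73.3%, against 82.3% for SIK1, 67.7% for LATS2 and 78% for STK17A.

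**Figure D1:**
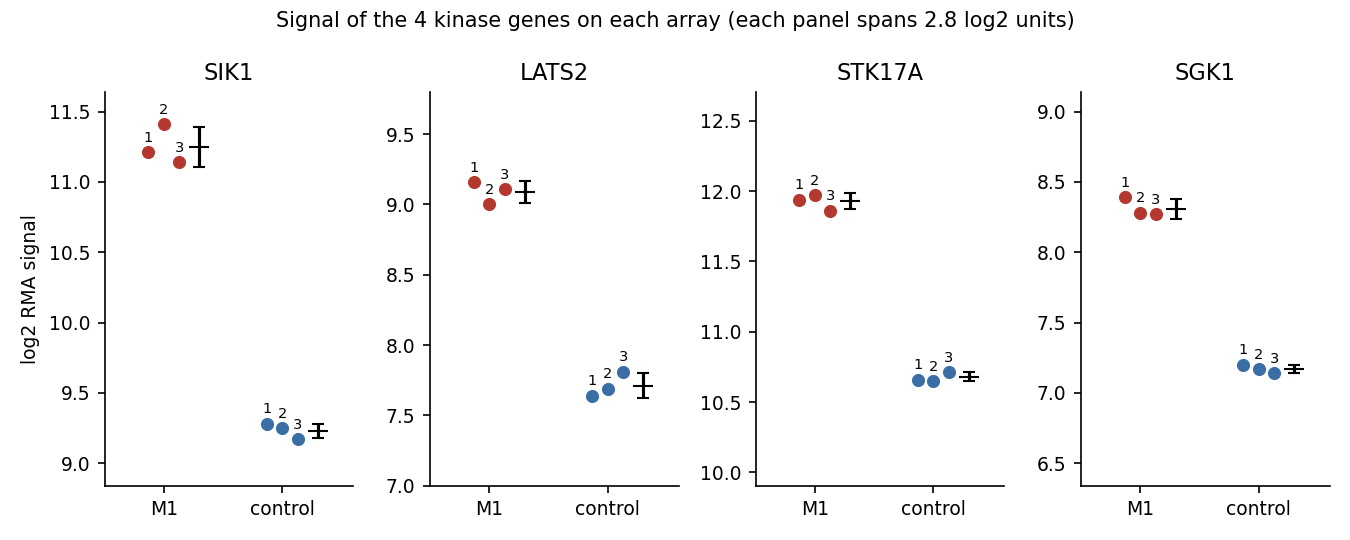
Log2 RMA signal of SIK1, LATS2, STK17A and SGK1 (y axes, each spanning the same number of log2 units) in the 3 M1 samples (red, left) and the 3 control samples (blue, right), numbered by replicate, with the mean ± SD in black. All M1 points lie above all control points in each panel, by 1.07 for SGK1 to 1.86 for SIK1.

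The members differed in how far they moved. Relative to the mean of the control samples, SIK1 was higher by 1.98, 2.18 and 1.91 in M1 samples 1 to 3. LATS2 was higher by 1.45, 1.29 and 1.4, and every one of these values lay below the lowest SIK1 value. STK17A was higher by 1.27, 1.30 and 1.18, and SGK1 by 1.23, 1.11 and 1.1. LATS2 and STK17A, neighbours in this order, overlapped, and so did STK17A and SGK1, while LATS2 and SGK1 did not. This leaves out the spread of the control samples, whose SD was 0.09 for LATS2. Control means ran from 7.17 for SGK1 to 10.68 for STK17A. As RMA compresses dim signals, sizes in different genes are not strictly comparable. The order of STK17A and SGK1 turned round after quantile normalization, with differences of 1.19 for STK17A and 1.25 for SGK1. M1 sample 2 had the highest value for SIK1 and STK17A and the lowest for LATS2, so no single M1 sample was the highest for all 4 genes. The median of the 4 differences was 1.31, against 0.00 for all probe sets and 1.27 for the 303 probe sets listed as higher in the authors' table.

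**Figure D2:**
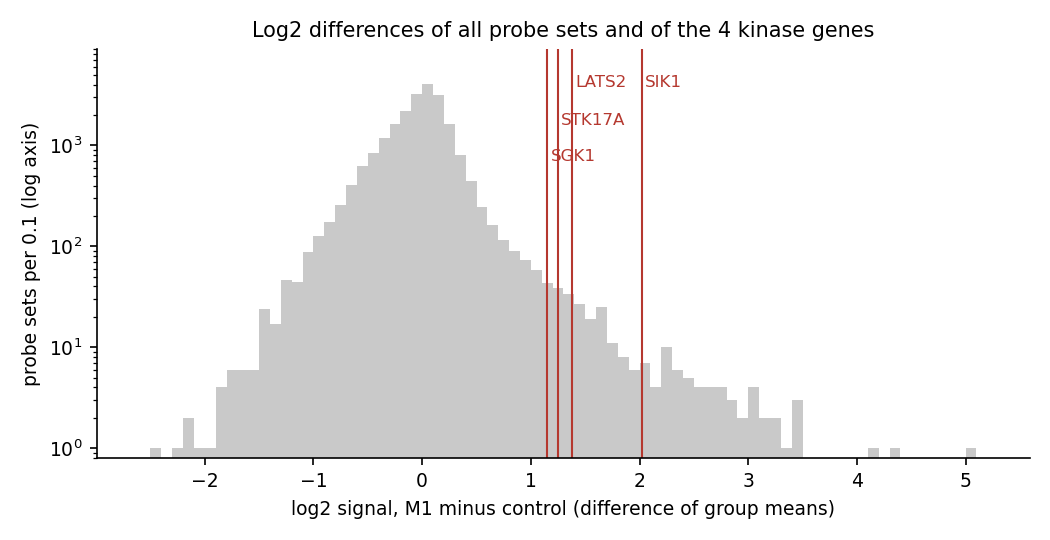
Histogram of the log2 difference, M1 minus control, of all 22119 probe sets (x axis, bins of 0.1, with a log y axis for the number of probe sets) with red lines at the 4 kinase genes. SGK1, STK17A and LATS2 lie close together between 1.15 and 1.38, and SIK1 lies apart at 2.02.

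The authors' annotation ties 15 genes of the table to serine/threonine kinase activity, and the 4 members are among the higher ones. Of these 15, 12 were higher and 3 lower with M1 protein, or 80% higher, where 60.4% of the other 482 probe sets of the table were higher. Without the 4 members, which were all higher and picked with results known, 8 of 11 were higher and 3 lower, or 72.7%. All 15 were selected by the authors on this contrast, and the difference in shares was not tested. Among the 11 kinases that are not members, PLK3, a stress-responsive polo-like kinase, was higher by 1.85 ± 0.08 (SE) on the log2 scale. PIM1, a constitutively active kinase that promotes cell survival, was higher by 1.49 ± 0.08 (SE), and its relative PIM2 by 1.00 ± 0.07 (SE). RPS6KA5, also called MSK1, a nuclear kinase that phosphorylates CREB and histone H3, was at 9.18, 8.96 and 9.23 in M1 samples and 7.88, 8.16 and 7.98 in control samples, a log2 difference of 1.12 ± 0.10 (SE). SIK1 had the largest difference of the 15 in the values as deposited.

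The 3 lower kinases were PLK1, PSKH1 and MAPK14. PLK1, the polo-like kinase that drives mitosis, averaged 10.09 ± 0.08 in M1 samples and 11.44 ± 0.04 in control samples (SD, n = 3 each), 2.55-fold lower with M1 protein. PSKH1 was at 7.68, 7.85 and 7.85 in M1 samples and 8.91, 8.76 and 8.73 in control samples, 2.01-fold lower. MAPK14, the stress-activated kinase p38 alpha, was at 9.53, 9.55 and 9.55 in M1 samples and 10.29, 10.27 and 10.27 in control samples, 1.67-fold lower. MAP2K3, an activating kinase of p38, went the other way, with a log2 difference of 0.86 ± 0.05 (SE). In each of these kinases the groups did not overlap, which their selection on this contrast largely fixed. Over all probe sets, all 3 M1 arrays lay above all 3 control arrays in 18.6% and below them in 27.9%.

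**Figure D3:**
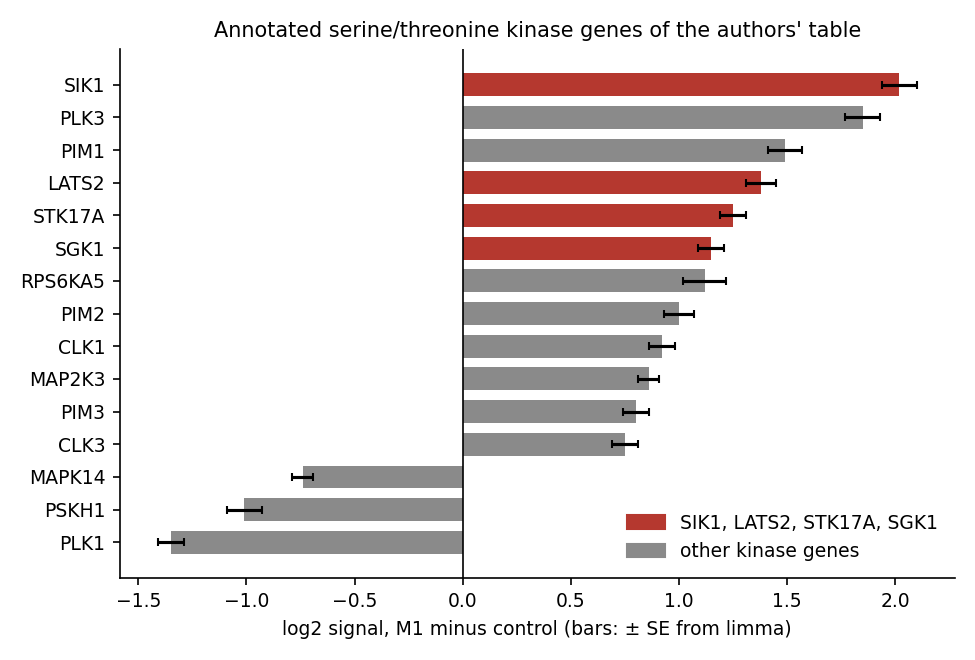
Log2 difference, M1 minus control, with its SE from limma, for the 15 genes of the authors' table annotated with serine/threonine kinase activity, in order of size. SIK1, LATS2, STK17A and SGK1 are red and the other kinase genes are grey. Of the bars, 12 point to higher and 3 to lower signal with M1 protein.

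Of the genes in the pathways around the members, some were in the authors' table, and for the rest no value can be given, since their probe sets carry no name here. As background to these counts, the table lists 2.25% of all probe sets, and 61% of those it lists were higher. Of 22 genes of the SGK1 branch, 3 were listed. NEDD4L, the ubiquitin ligase that SGK1 phosphorylates and thereby restrains, was at 11.31, 11.24 and 11.24 in M1 samples and 9.83, 9.96 and 9.96 in control samples, a log2 difference of 1.35 ± 0.06 (SE). MAPKAP1, which encodes SIN1, a subunit of the mTORC2 complex that phosphorylates SGK1, was at 10.25, 10.18 and 10.27 in M1 samples and 10.91, 10.93 and 10.97 in control samples, 1.63-fold lower with M1 protein. In RNA signal, SGK1 and NEDD4L were thus both higher and MAPKAP1 lower. Protein and kinase activity were not measured here.

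Of 24 genes of the Hippo pathway, LATS2 and FRMD6 were listed. FRMD6, an upstream regulator of the pathway also called Willin, was higher by 0.81 ± 0.06 (SE) on the log2 scale. Of 22 genes regarded as targets of YAP and TAZ, 4 were listed and all 4 were higher, where 61% of the table was higher, and LATS2 is one of the 4, so 3 other genes carry the count. CCN2, the matricellular protein first called CTGF, was at 10.58, 10.65 and 10.23 in M1 samples and 7.08, 7.31 and 7.20 in control samples, a log2 difference of 3.29 ± 0.12 (SE). GADD45A, a stress-induced growth arrest gene, was higher by 1.51 ± 0.07 (SE) and FJX1 by 1.39 ± 0.09 (SE). The median over the 4 listed genes was 1.45. Of 5 genes of the death-associated protein kinase family, only STK17A was listed.

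Of 16 genes on a list of CREB targets, 10 were in the authors' table, SIK1 included, where the table lists 2.25% of all probe sets. The list also holds the CREB coactivator CRTC1, which was not among the 10. Whether CREB acted on these genes here was not tested. All 10 were higher, against 61% of the table, by 1.56 to 3.08 on the log2 scale with a median of 2.58. The orphan nuclear receptor genes NR4A2 and NR4A1 were higher by 3.08 ± 0.10 and 3.01 ± 0.09 (SE). DUSP1, a phosphatase that inactivates MAP kinases, was higher by 2.96 ± 0.06 (SE), and FOSB, a subunit of AP-1, by 2.87 ± 0.06 (SE). SIK1 ranked below 7 of these genes and above NFIL3, at 1.6, and PER1, at 1.56. Of 23 genes of the SIK branch itself, SIK1 and MEF2D were listed. MEF2D, a transcription factor that class IIa histone deacetylases repress, was at 11.23, 11.33 and 11.26 in M1 samples and 9.72, 9.76 and 9.88 in control samples, a log2 difference of 1.49 ± 0.07 (SE). The lists were drawn up with earlier results of these data known, and the arrays are those on which the authors chose their table, so the counts describe that choice.

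**Figure D4:**
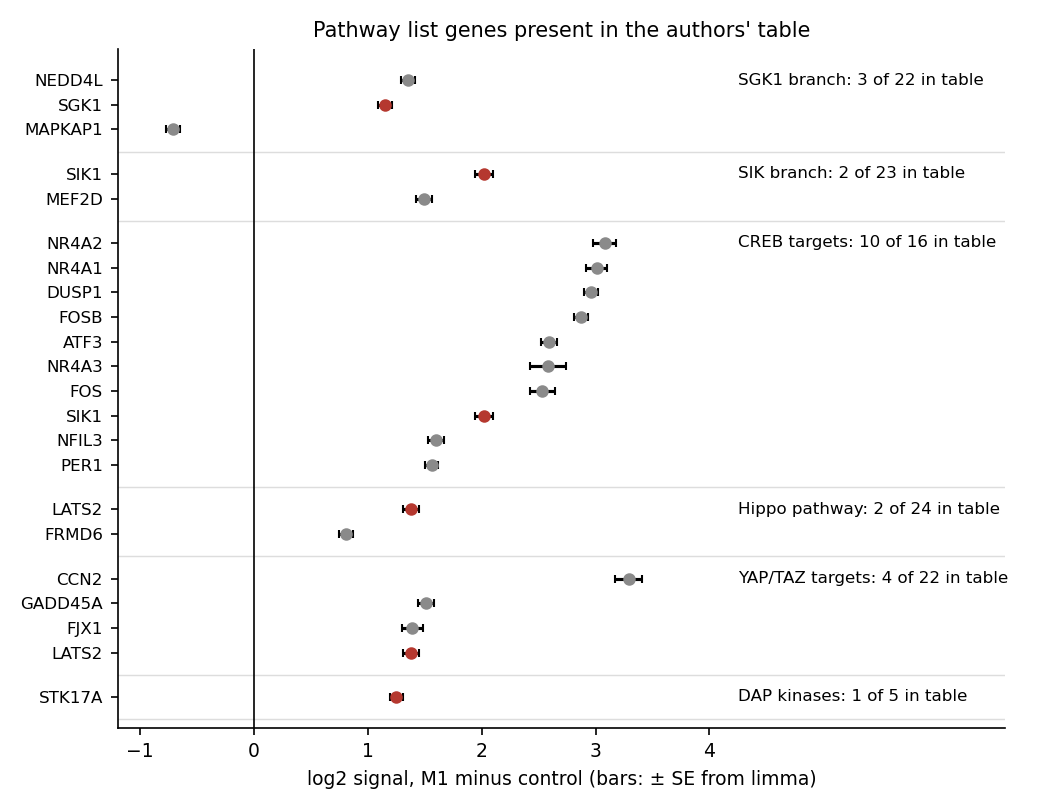
Log2 difference, M1 minus control, with its SE from limma, for the genes of 6 pathway lists that were present in the authors' table, with the members in red and the number listed at the right. MAPKAP1 is the only gene to the left of 0, and 10 of the 16 genes on the CREB target list are shown, all to the right.

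The authors' annotation gives the members other terms in common, and the counts below stand beside a table with 61% of probe sets higher and 39% lower. All 4 members carry the terms protein phosphorylation, held by 15 genes (13 higher, 2 lower), and nucleus, held by 205 (123 higher, 82 lower). SIK1, LATS2 and SGK1 carry the term cytoplasm, held by 142 genes (89 higher, 53 lower). Each count includes the members that carry the term, which were all higher and picked with results known. SIK1, LATS2 and STK17A carry the term intracellular protein kinase cascade, as do 7 genes of the table in all, of which 6 were higher and 1 lower. The 3 members are thus among the 6 higher ones. STK17A and SGK1 carry the term apoptosis, held by 32 genes of the table, 28 higher and 4 lower. SIK1 and LATS2 carry the term cell cycle, held by 24 genes, of which 9 were higher and 15 lower. These 2 kinase genes were thus on the less frequent side of that term, and this was not tested.

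For each member, the named genes with the most similar profile were found by the Euclidean distance between log2 signals over the 6 arrays, each gene centred on its control mean. Such a distance follows mainly the size of the difference between the groups. SIK1 was nearest to NRARP, a feedback inhibitor of Notch signalling (distance 0.179), AVPI1 (0.182) and the activin antagonist FST (0.241), where the median distance was 2.06 to the other 496 probe sets of the table and 1.48 to the 302 higher ones among them. LATS2 was nearest to NABP1, a single-stranded DNA binding protein (0.067), NEDD4L (0.135) and the AP-1 gene JUND (0.158), with medians of 1.16 over the 496 and 0.73 over the 302. NABP1 was at 10.25, 10.07 and 10.17 in M1 samples, with the lowest value in sample 2 as in LATS2, and at 8.75, 8.80 and 8.85 in control samples. The nearest genes were picked for the smallest distance on these same arrays. A distance far below the median and a like order of samples therefore follow from that choice. STK17A was nearest to the AP-1 gene JUNB (0.092), the ubiquitin ligase RNF19B (0.093) and LOC284023 (0.105), with medians of 1.34 and 0.64 over the same sets. SGK1 was nearest to CCNG2, an atypical cyclin (0.075), the urokinase receptor gene PLAUR (0.121) and PLEKHM1, a protein of lysosome traffic (0.124), with medians of 1.53 over the 496 and 0.57 over the 302. Between members, the distance was 0.22 for STK17A and SGK1 and 0.29 for LATS2 and STK17A, and from SIK1 it was 1.17 to LATS2 and 1.53 to SGK1.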

How the data were processed

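RNA of 3 M1 and 3 control samples, picked by the submitters from 12 after a check of RNA integrity, was measured on Affymetrix Human 2.0 ST arrays. The deposited log2 values are RMA signals, 1 per probe set, made with Affymetrix Expression Console 1.1.2, per the submitters' processing notes. RMA corrects background, normalizes between arrays and compresses dim signals. The authors' table gives, per the file headers, a SAM score, a fold change as a ratio of mean unlogged signals and a t-test p-value. Its signals equalled the value table. Symbols were updated through RefSeq accessions (476 of 497 matched). The number of arrays limits the precision.

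Differences, M1 minus control, were fitted in R 4.3.3 with limma 3.58.1 over all 22119 probe sets, unfiltered, and the fit was tested on simulated data. Samples were grouped by their titles. Named genes were the 4 members, up to 4 genes of each of 6 lists with the largest difference, the 4 largest rises and up to 4 falls among other annotated kinases, and 3 nearest profiles per member. NFIL3, PER1, MAP2K3 and the 2 markers were named besides. The members and lists were chosen with earlier results of these data known. The alternatives are given in the closing section.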

Additional observations from a re-analysis of the deposited data

How the results depend on the processing

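All 4 members stayed higher in M1 samples under each alternative run on them, as did the directions of the other 29 genes taken by the naming rule (334 gene and setting pairs, 0 reversed). As the groups did not overlap in any of these genes, leaving out a sample or weighting the arrays could not turn a direction. A replicate block leaves the difference itself unchanged in this balanced design. Only quantile normalization and median centring could have reversed a direction, so the count of pairs overstates what was checked. Quantile normalization moved LATS2 to 1.48, STK17A to 1.19 and SGK1 to 1.25, and median centring moved STK17A to 1.31 and SGK1 to 1.21, each by more than the pooled SD of its replicates. No other setting moved a member that far. Without each sample in turn, the log2 difference was 1.94 to 2.08 for SIK1, 1.34 to 1.43 for LATS2, 1.23 to 1.28 for STK17A and 1.11 to 1.17 for SGK1. Over all probe sets, 7245 were called, 2555 higher and 4690 lower, and 5386 to 6763 without each sample in turn. The fold limit of 1.5 left 2088 (790 higher, 1298 lower) and the authors' table alone 497 (303 and 194), fewer by construction. A fit with a replicate block called 5821 probe sets, of which 2047 were higher and 3774 lower, and there the SE of a member was at most 0.08. For samples 1, 2 and 3, the correlation of the M1 and the control deviation from the group mean was -0.12, -0.12 and -0.0011. No M1 sample correlated best with the control sample of its own number. Deviations from a mean of 3 samples cancel out within the group, which ties these correlations to each other. They therefore cannot tell whether samples of equal number shared a culture or a batch. The other settings gave counts within 1.5 times the 7245 called over all probe sets.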

Other observations

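A further 10 genes of the authors' table, 5 higher and 5 lower with M1 protein, have the word kinase in their description without the serine/threonine annotation, and the ones given here were chosen after their values were seen. CDK17, a cyclin-dependent kinase that the annotation does not tie to the term, was at 10.59, 10.52 and 10.41 in M1 samples and 9.48, 9.67 and 9.65 in control samples, a log2 difference of 0.91 ± 0.08 (SE). AKAP12, a scaffold that holds cAMP-dependent kinase, was higher by 1.24 ± 0.06 (SE). Kinases of small molecules went both ways. ETNK1, which phosphorylates ethanolamine, was higher by 1.26 ± 0.07 (SE), while DOLK, which phosphorylates dolichol for protein glycosylation, was 2.41-fold lower with M1 protein, and TK2, the mitochondrial thymidine kinase, 1.89-fold lower. All lie in a table selected on this contrast, so these values carry no test.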
